A study of Mus musculus with 6 samples.

Results

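A set of 10 immediate early transcription factors was followed through 6 mouse ovary libraries. They are the FOS family (Fos, Fosb, Fosl1 and Fosl2), the JUN family (Jun, Junb and Jund), Egr1, Atf3 and Nr4a1. These 10 genes were taken by NCBI Gene ID from 45679 genes with a symbol in all libraries. All 10 were among the 16473 genes that reached a TPM of 1 in at least 2 libraries and were tested. TPM is transcript abundance scaled for transcript length and library size, so levels of different genes can be compared on it. The mice were wild-type BDF1, a hybrid laboratory strain, and RNA of ovarian tissue was sequenced in every group. The labels give 3 groups of 2 libraries each: PBS at 8 weeks of age (young PBS), PBS at 65 weeks (old PBS), and MIT-001 at 65 weeks (old MIT-001). MIT-001, which scavenges reactive oxygen species in mitochondria, was injected into the abdomen at 0.5 mg/kg, and all groups were injected for 7 days. How many animals went into a library is not stated, so the p-values speak only of the spread among these 6 libraries, which may be technical.

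Immediate early genes are typically transcribed within minutes of a signal, without new protein being needed first. Their promoters are held ready and are switched on by kinases acting on SRF and CREB. FOS proteins bind DNA only with a partner, usually a JUN protein, and the pair is called AP-1, while JUN proteins can also pair among themselves. In the ovary these genes are best known for their rapid response to luteinizing hormone in granulosa and theca cells, and in most tissues they also answer growth factors, wounding and stress. Their RNAs are short-lived, so a level is a picture of the last signals a tissue received.

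The promoters of 8 of the 10 genes were read from a RefSeq table (GRCm38.p6), and those of Fosl1 and Egr1 were not found in it. The 250 bases before each start were searched on both strands for 6 motifs. TGACG, the core bound by CREB and ATF proteins, was present in Fos, Fosb, Junb, Atf3 and Nr4a1, and in 17.8% of all 32851 promoters of the table. GCGNGGGCG, bound by EGR proteins, was present in Fosb, Fosl2 and Nr4a1 and in 4.70% of all promoters. TGACATCA, a variant AP-1 element of the Jun promoter, was present in Jun and in 2.93% of all promoters. The full CRE TGACGTCA (which contains TGACG), the AP-1 site TGANTCA and the CArG box bound by SRF were found in 0 of the 8 windows, and in 1.55%, 6.75% and 1.47% of all promoters. A match describes these letters only, and sites outside the 250 bases, or in Fosl1 and Egr1, were not searched. Stretches with matches follow for 6 genes with large differences between groups (Fos, Nr4a1, Jun, Atf3, Fosb and Junb) and for Fosl2, whose group means were nearly equal. Capitals mark TGACG, TGACATCA and GCGNGGGCG, which appear as their reverse complements where they lie on the other strand. The first 4 stretches end at the base before the RefSeq start, and the last 3 are 30 bases around a match.
Fos (chr12:85473740-85473889, plus strand): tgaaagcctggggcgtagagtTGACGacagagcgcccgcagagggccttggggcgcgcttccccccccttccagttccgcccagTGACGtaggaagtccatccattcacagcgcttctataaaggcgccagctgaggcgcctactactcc
Nr4a1 (chr15:101266596-101266845, plus strand): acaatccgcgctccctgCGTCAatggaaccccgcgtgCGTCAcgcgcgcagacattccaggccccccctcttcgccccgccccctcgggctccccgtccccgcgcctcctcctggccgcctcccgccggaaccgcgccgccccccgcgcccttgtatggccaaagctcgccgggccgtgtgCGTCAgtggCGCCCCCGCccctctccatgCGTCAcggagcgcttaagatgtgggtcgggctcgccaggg
Jun (chr4:95052223-95052372, minus strand): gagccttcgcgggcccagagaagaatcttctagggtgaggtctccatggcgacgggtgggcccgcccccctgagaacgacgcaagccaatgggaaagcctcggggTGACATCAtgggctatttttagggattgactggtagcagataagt
Atf3 (chr1:191183334-191183483, minus strand): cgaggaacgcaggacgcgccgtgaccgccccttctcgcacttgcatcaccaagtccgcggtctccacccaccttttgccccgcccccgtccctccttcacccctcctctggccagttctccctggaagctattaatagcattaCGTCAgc
Fosb (chr7:19310082-19310111, minus strand): tgcgggTGACGcaagcGCGGGGGCGggtcc
Junb (chr8:84978838-84978867, minus strand): cgcttcctgacagTGACGcgagccgcctcc
Fosl2 (chr5:32136382-32136411, plus strand): tccggctgcgcGCGGGGGCGgaagggcgcg
In Fos the matches start 129 and 66 bases before the start, and in Nr4a1 there are 4 of TGACG, all on the other strand. The Nr4a1 start used by the table lies inside the gene as annotated on mm10, from 101253902 to 101274795 of chromosome 15, and the Fosb stretch likewise lies inside its annotated gene, near its 5′ end.

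Depth was similar across the libraries, with 6.34 to 7.14 gigabases of aligned reads estimated from the deposited coverage. Ovaries lose oocytes with age, and oocyte genes went against the age labels. The summed TPM of 10 oocyte markers, among them Gdf9 and Zp3, was 442 and 469 in the libraries labelled old PBS, 292 and 34.8 in those labelled young PBS, and 83.5 and 41.6 in those labelled old MIT-001. Markers of granulosa cells, which surround growing oocytes, were also highest in the libraries labelled old PBS, and those of macrophages and T cells, immune cells that gather in ageing ovaries, were lowest there. Groups are therefore named as labelled throughout. Replicate 1 stood apart from replicate 2 in B and plasma cell markers both in young PBS (summed TPM 1409 against 186) and in old MIT-001 (962 against 84.0), in mast cell markers (120 against 19.0 and 63.2 against 7.89), and, in young PBS, in fat cell markers (275 against 31.8).

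Fos and Fosb were lowest in both libraries labelled old PBS and highest in both labelled old MIT-001. Fos, the founding FOS-family gene, stood at 369 and 162 TPM in young PBS replicates 1 and 2, at 127 and 68.4 TPM in old PBS, and at 414 and 663 TPM in old MIT-001. The 3 groups did not overlap, although old PBS replicate 1 and young PBS replicate 2 were close. Fosb, whose protein pairs with JUN proteins as FOS does, stood at 186 and 121 TPM in young PBS, at 36.3 and 16.8 TPM in old PBS and at 239 and 370 TPM in old MIT-001. Here too no groups overlapped, and the distance between old PBS and the other libraries was wider than for Fos. Fosl2, which encodes FRA2, was at 129 and 300 TPM in young PBS, 231 and 176 TPM in old PBS, and 191 and 213 TPM in old MIT-001. Its highest and lowest libraries were both labelled young PBS, and the other groups lay between them. Fosl1, which encodes FRA1, was at 6.50 and 0.261 TPM in young PBS, 1.22 and 0.113 TPM in old PBS, and 2.26 and 1.96 TPM in old MIT-001. It was the least abundant of the 10 genes in every library.

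The 3 JUN-family genes were all lowest in the libraries labelled old PBS, with a narrower range in Jund. Jun, the main partner of FOS, was at 212 and 267 TPM in young PBS, 148 and 93.4 TPM in old PBS, and 336 and 448 TPM in old MIT-001, with no overlap between any groups. Junb, which often restrains JUN, was at 227 and 99.1 TPM in young PBS, 74.8 and 45.4 TPM in old PBS, and 126 and 357 TPM in old MIT-001. Old PBS lay below the rest, and the other groups overlapped. Jund, the most constantly expressed of the family in many tissues, was at 135 and 173 TPM in young PBS, 119 and 108 TPM in old PBS, and 147 and 235 TPM in old MIT-001. Its old PBS libraries were again lowest, by a small margin over young PBS replicate 1.

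Egr1, Atf3 and Nr4a1 were also lowest in both libraries labelled old PBS. Egr1, a zinc-finger factor induced through SRF, was at 242 and 215 TPM in young PBS, 209 and 97.6 TPM in old PBS, and 269 and 423 TPM in old MIT-001. Old PBS replicate 1 was barely below young PBS replicate 2. Atf3, a stress-induced member of the ATF/CREB family, was at 171 and 53.3 TPM in young PBS, 18.8 and 11.3 TPM in old PBS, and 202 and 177 TPM in old MIT-001. Both old PBS libraries were far below the rest. Nr4a1, an orphan nuclear receptor that acts in ovarian steroid-producing cells, was at 197 and 156 TPM in young PBS, 85.9 and 56.6 TPM in old PBS, and 209 and 311 TPM in old MIT-001, with no overlap between any groups. In bulk tissue, fewer cells of a type and less RNA per cell cannot be told apart.

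**Figure D1:**
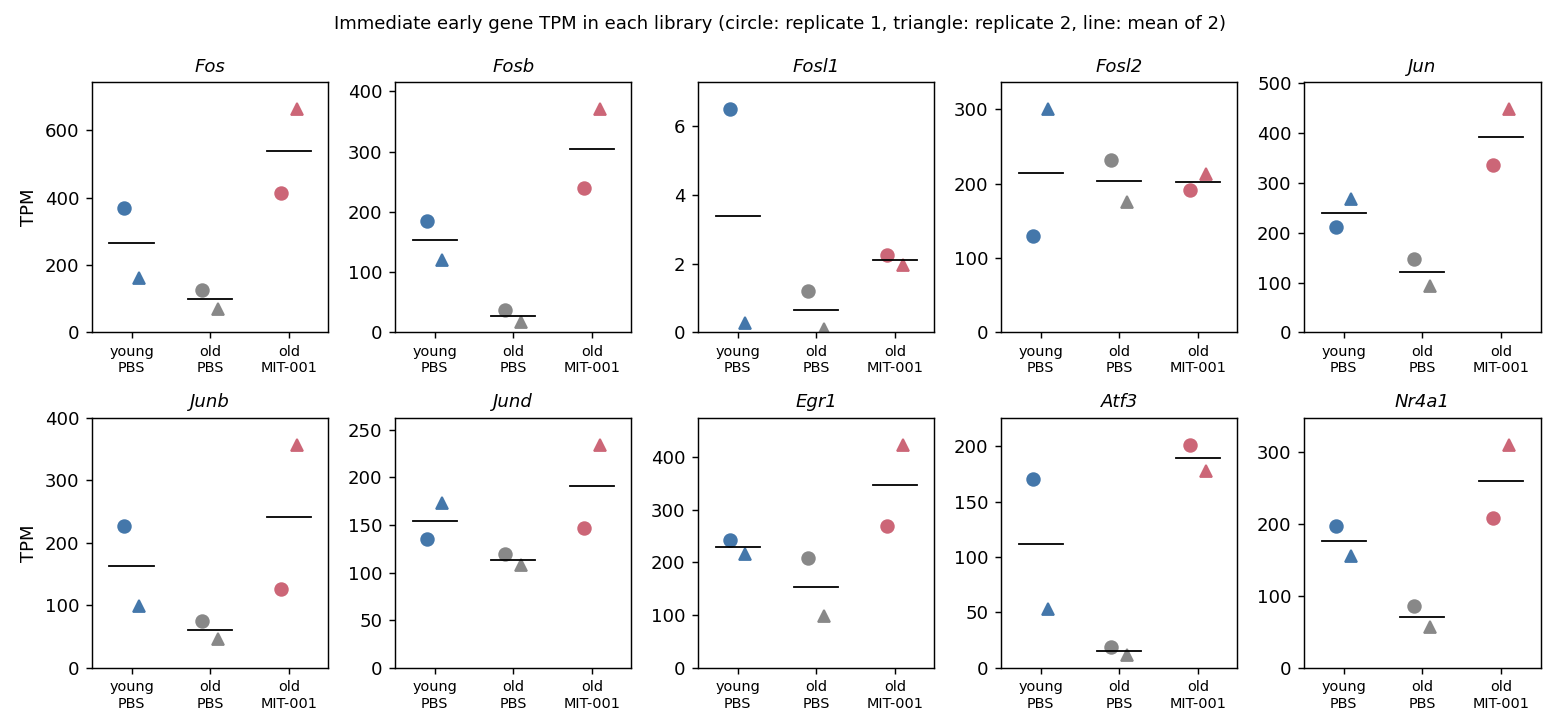
TPM (vertical axis, from 0, a scale per gene) of the 10 genes in the 3 groups as labelled, with circles for replicate 1, triangles for replicate 2 and lines for the mean of 2 libraries. In 8 of the 10 genes both old PBS libraries lie below the other 4, and Fosl2 and Fosl1 are the exceptions.

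In 8 of the 10 genes both libraries labelled old PBS lay below the other 4, against 8.08% of all genes tested, and the exceptions were Fosl1 and Fosl2. The count was 8 with FPKM, 8 with library medians set equal (centring), and 7 after quantile normalization, where Egr1 was lost. Leaving out a library in turn gave 8 or 9, and the share of all genes tested was then 8.68% to 15.1%. The 10 genes also differed between replicates of a group. All 10 genes were higher in replicate 1 than in replicate 2 labelled old PBS, with a median absolute difference of 0.70 in log2(TPM + 1) against 0.23 for all genes tested. In old MIT-001 the genes differed by a median of 0.60 between replicates against 0.24 for all genes tested, with 2 of 10 higher in replicate 1. In young PBS the values were 0.90 and 0.52, with 7 of 10 higher in replicate 1. The genes thus spread more between replicates than a typical gene in each of the 3 groups.

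The comparison of old PBS with young PBS is labelled as one of age without treatment, and the marker genes above go against those labels. On the scale of log2(TPM + 1), 9 of the 10 genes were lower in the libraries labelled old PBS and 1 was higher, against 31.9% of genes tested lower and 68.1% higher. The 1 was Fosl2, whose mean TPM was lower in old PBS (204 against 215). None passed limma's test after Benjamini-Hochberg adjustment over all genes (threshold 0.05), which 0.0364% of genes tested passed, 0.0121% higher and 0.0243% lower. Fosb was at 26.6 ± 13.8 TPM against 153 ± 45.8 TPM (SD, n = 2 each), a log2 fold change of -2.55 ± 0.43 (SE, adjusted p 0.155 by limma). Atf3 had the largest difference, -2.63 ± 0.55, from 112 ± 83.0 to 15.1 ± 5.29 TPM (adjusted p 0.210 by limma). These are fold changes of TPM + 1. At an unadjusted p below 0.05, 5 genes were lower and 0 higher, against 3.55% of genes tested lower and 14.6% higher. Besides Fosb and Atf3 they were Fos (-1.38 ± 0.50), Nr4a1 (-1.32 ± 0.31) and Jun (-1.01 ± 0.30). Junb (-1.35 ± 0.61), Fosl1 (-0.97 ± 0.84), Egr1 (-0.67 ± 0.41) and Jund (-0.42 ± 0.28) had wider errors for their size, and Fosl2 was at 0.03 ± 0.41. Groups did not overlap for 8 genes, all lower, against 11.0% of genes tested lower without overlap and 38.1% higher.

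The median log2 fold change of the 10 genes was -1.16, and that of all genes tested was 0.23. Centring moved the median of all genes to -0.09, and that of the 10 genes was then -1.48. Of all genes at an unadjusted p below 0.05, 80.5% were higher in old PBS, and 36.2% after centring. The median of the 10 rested in part on the young PBS libraries: dropping replicate 1 of young PBS gave -0.77, and dropping replicate 2 gave -1.72. Without replicate 1, Atf3 passed limma at an adjusted p of 0.0476 and a log2 fold change of -1.80. In that fit 948 genes were called in all. The count of 5 lower was smaller without replicate 2 labelled old PBS, and larger without replicate 2 of young PBS. The shares of all genes tested changed in these fits too.

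The comparison of old MIT-001 with old PBS is labelled as one of the compound in old ovaries. It shares with the comparison above the old PBS libraries, whose marker genes go against their age label. On the same scale, 9 of the 10 genes were higher in the libraries labelled old MIT-001 and 1 was lower, against 53.5% of genes tested higher and 46.5% lower. None passed limma after adjustment, which 0.0182% of genes tested passed, although 8 were higher at an unadjusted p below 0.05 against 7.45% of genes tested higher and 4.36% lower. Atf3 had the largest log2 fold change, 3.60 ± 0.55, with 190 ± 17.2 TPM against 15.1 ± 5.29 TPM (SD, n = 2 each, adjusted p 0.104 by limma). Fosb followed at 3.54 ± 0.43, with 305 ± 92.7 TPM against 26.6 ± 13.8 TPM (adjusted p 0.0727 by limma), and Fos at 2.48 ± 0.50, with 538 ± 176 TPM against 97.8 ± 41.5 TPM (adjusted p 0.153 by limma). Nr4a1 (1.85 ± 0.31), Junb (1.85 ± 0.61), Jun (1.71 ± 0.30), Egr1 (1.24 ± 0.41) and Jund (0.70 ± 0.28) made up the rest of the 8. Fosl1 was at 0.98 ± 0.84 and Fosl2 at -0.00097 ± 0.41. Groups did not overlap for 9 genes, all higher, against 27.2% of genes tested higher without overlap and 24.2% lower. The median of the 10 genes was 1.78 and that of all genes tested was 0.03. Of all genes at an unadjusted p below 0.05, 63.1% were higher, and 45.6% after quantile normalization.

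These calls depended on which libraries set the spread. With only the 4 libraries compared in the fit, Fosb and Atf3 passed at adjusted p 0.0396 and 0.0320 by limma. Without replicate 1 labelled young PBS, Fos, Fosb and Atf3 passed at 0.0497, 0.0376 and 0.0299, and without replicate 2 at 0.050 (just under the threshold), 0.0387 and 0.0304. Young PBS is no arm of this comparison, so its fold changes were the same in these fits. Over all genes 356, 358 and 372 were called in them, in place of 3. The count of 8 also changed with the library left out. The median of the 10 genes was 1.30 without replicate 2 labelled old MIT-001 and 1.44 without replicate 2 labelled old PBS.

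Old MIT-001 and young PBS were closer to each other. All 10 genes had a positive log2 fold change of TPM + 1, against 69.3% of genes tested higher and 30.7% lower. Mean TPM was nevertheless lower in old MIT-001 for Fosl1 (2.11 against 3.38) and Fosl2 (202 against 215). Their median log2 fold change was 0.55 against 0.24 for all genes tested, and 0.14 after centring against -0.17. None was called by limma after adjustment (0% of genes tested were), and at an unadjusted p below 0.05 the count was also 0 of 10, against 17.1% of genes tested higher and 0.813% lower. Groups did not overlap for Fos (1.10 ± 0.50), Fosb (0.99 ± 0.43), Atf3 (0.98 ± 0.55), Jun (0.70 ± 0.30), Egr1 (0.56 ± 0.41) and Nr4a1 (0.54 ± 0.31), 6 genes, against 37.3% of genes tested higher without overlap and 6.56% lower. Of all genes at an unadjusted p below 0.05, 95.5% were higher, and 44.2% after centring. Junb (0.50 ± 0.61), Jund (0.28 ± 0.28), Fosl2 (0.03 ± 0.41) and Fosl1 (0.02 ± 0.84) overlapped. The median was 0.24 without replicate 2 labelled old MIT-001, 0.89 without replicate 1, and 0.90 without replicate 1 labelled young PBS. In this last fit, with 1 young PBS library, 9 of the 10 were higher, against 11185 of 16473 genes tested. Without replicate 2 labelled young PBS 8 were higher, against 11234 of 16473. The direction of Fosl1, Fosl2 and Jund was negative after centring.

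**Figure D2:**
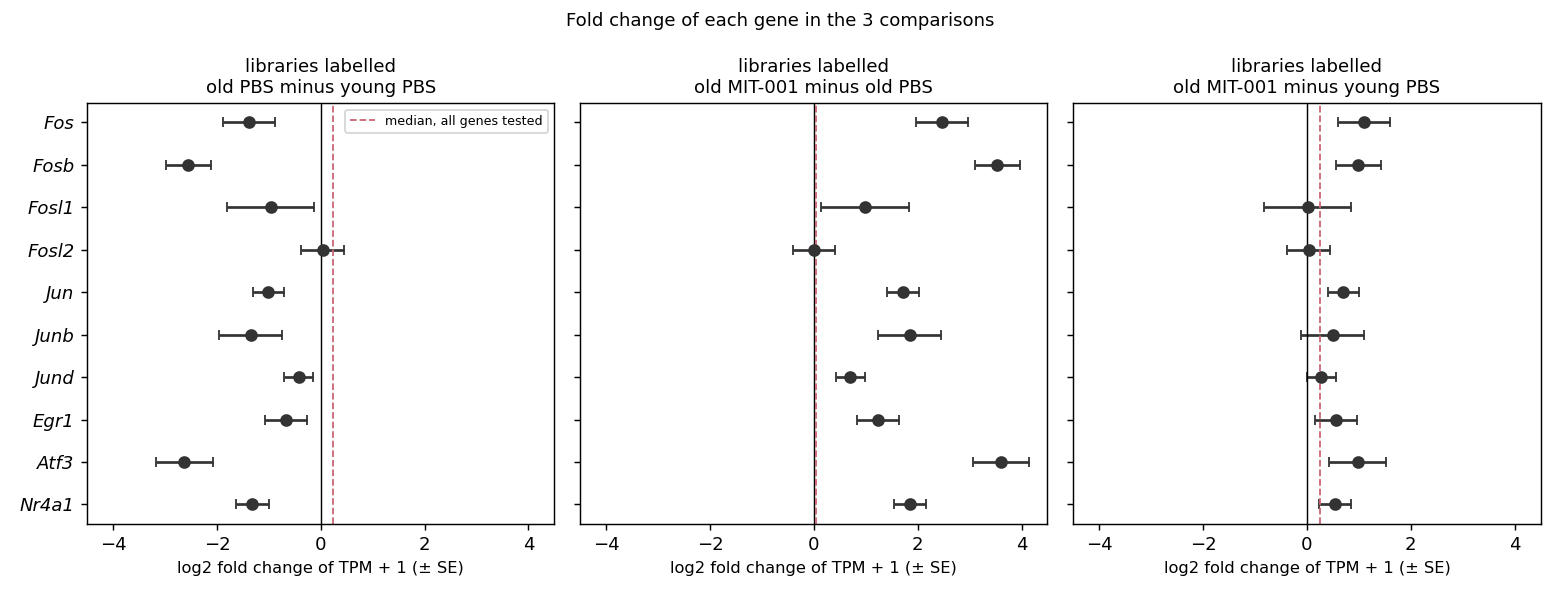
Log2 fold change of TPM + 1 (horizontal axis) of each gene in the 3 comparisons, points with SE bars from limma, and the median of all genes tested as a dashed line. Fosb and Atf3 lie farthest from 0 in the first comparison (-2.55 and -2.63) and the second (3.54 and 3.60), while Fosl2 lies near 0 in all 3.

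The make-up of the FOS-family transcript pool differed between libraries more than the balance of FOS to JUN. The 4 FOS-family genes summed to 690 and 583 TPM in young PBS, 396 and 261 TPM in old PBS, and 847 and 1248 TPM in old MIT-001. The 3 JUN-family genes summed to 574 and 539 TPM, 342 and 247 TPM, and 609 and 1040 TPM in the same order. Both pools were smallest in old PBS and largest in old MIT-001, and FOS-family transcripts made up 51.4% to 58.2% of their sum in all 6 libraries. Within the FOS family, Fosl2 held 58.4% and 67.3% of transcripts in old PBS, 22.6% and 17.0% in old MIT-001, and 18.7% and 51.5% in young PBS. Fosl2 was thus the main FOS-family transcript in both old PBS libraries and in young PBS replicate 2, and Fos in the other 3. Fosb held 9.18% and 6.42% of the family in old PBS, against 26.9% and 20.7% in young PBS and 28.3% and 29.7% in old MIT-001. The ratio of Fos to Fosb was 3.50 and 4.08 in old PBS, and between 1.34 and 1.99 in the other 4 libraries. FOS and FOSB proteins carry strong activating regions that FRA1 and FRA2 lack, but protein was not measured here. With 2 libraries a group, an exact permutation test of such ratios cannot go below a p of 0.333, so none is given. In the JUN family, Jund held 34.8% and 43.9% in old PBS, 23.5% and 32.1% in young PBS, and 24.1% and 22.6% in old MIT-001.

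**Figure D3:**
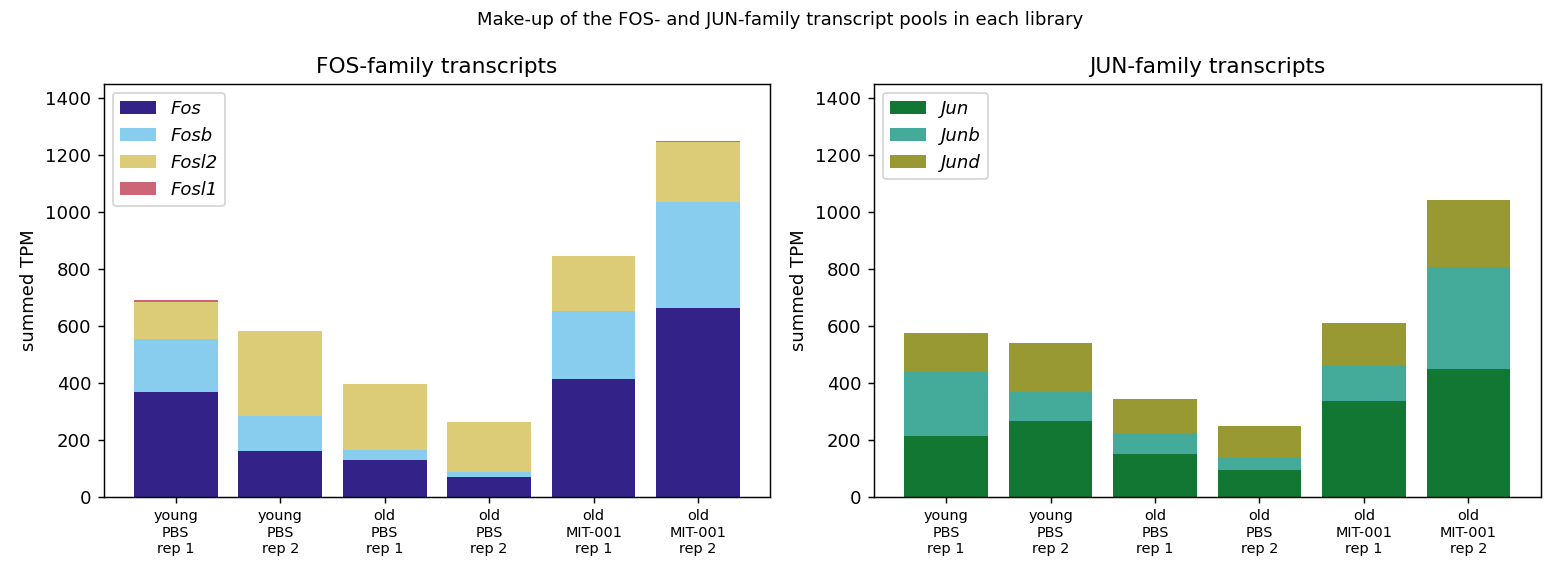
Summed TPM (vertical axis, from 0) of FOS-family genes on the left and JUN-family genes on the right in each of the 6 libraries, with segments for single genes. The Fosl2 segment stays between 129 and 300 TPM in all libraries while the Fos and Fosb segments are smallest in old PBS and largest in old MIT-001.

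Other immediate early factors were mostly low in old PBS as well. Of 20 other immediate early transcription factors 18 were tested, and 14 were lower and 4 higher in old PBS than in young PBS (median -0.69). At an unadjusted p below 0.05, 4 were lower and 0 higher, against 3.55% and 14.6% of genes tested, and 0 passed after adjustment. Without replicate 1 labelled young PBS, 13 were lower (median -0.38, against 0.27 for all genes tested). The count of 4 depended on the library left out, and was smaller without this library or without replicate 2 labelled old PBS. In old MIT-001 against old PBS all 18 were higher (median 1.34), 10 of them at an unadjusted p below 0.05, against 7.45% of genes tested, and 0 after adjustment. Klf2, a factor induced by blood flow in endothelium, was at 61.6 and 39.0 TPM in young PBS, 25.5 and 21.2 TPM in old PBS, and 78.5 and 79.8 TPM in old MIT-001. Its 2 log2 fold changes were -1.05 ± 0.27 and 1.73 ± 0.27. Klf4, a related factor, had -0.997 ± 0.31 and 2.59 ± 0.31 (adjusted p 0.225 and 0.0712 by limma), and Csrnp1, a nuclear protein induced by AXIN1, had -1.51 ± 0.44 and 1.45 ± 0.44. Klf6, Myc and Hes1 had 0.61 ± 0.63, 0.46 ± 0.61 and 0.02 ± 0.27 in old PBS against young PBS. Klf6 stood at 59.7 and 12.9 TPM in young PBS replicates 1 and 2. With replicate 1 left out, which leaves 1 young PBS library, its log2 fold change was 1.67.

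Feedback regulators, which shorten the response by removing phosphate from kinases, degrading RNA or blocking receptors, were mixed in old PBS against young PBS. Of 22, 14 were lower and 8 higher (median -0.21), with 5 lower and 2 higher at an unadjusted p below 0.05, against 3.55% and 14.6% of genes tested. This split rested on replicate 1 labelled young PBS: without it 8 were lower and 14 higher (median 0.38, against 0.27 for all genes tested). In old MIT-001 against old PBS 21 were higher (median 0.88), 10 of them at an unadjusted p below 0.05 against 7.45% of genes tested, and 0 passed after adjustment in either comparison. Zfp36, which encodes a protein that destabilises short-lived RNAs, had log2 fold changes of -1.59 ± 0.52 and 1.71 ± 0.52. Sik1, a kinase that restrains CREB coactivators, had -1.15 ± 0.35 and 1.94 ± 0.35, and Socs3, an inhibitor of cytokine receptors, -1.73 ± 0.64 and 2.02 ± 0.64. On the other side were Dusp6, a phosphatase of ERK (0.55 ± 0.22 and 0.75 ± 0.22), Spred1 (0.98 ± 0.30 and 0.19 ± 0.30) and Rgs2 (1.02 ± 0.67 and -0.12 ± 0.67).

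Transcripts of the upstream pathway had medians close to those of all genes tested (0.23 and 0.03). Of 21 genes for kinases, SRF and its cofactors and CREB1, 18 were higher and 3 lower in old PBS than in young PBS (median 0.37), against 68.1% of genes tested higher, and 5 were higher at an unadjusted p below 0.05 against 14.6%. Without replicate 1 labelled young PBS, 13 were higher and 8 lower (median 0.28). In old MIT-001 against old PBS, 7 were higher and 14 lower (median -0.09), against 53.5% and 46.5% of genes tested. At an unadjusted p below 0.05 there were 0, against 7.45% higher and 4.36% lower. Groups did not overlap there for 2 higher and 9 lower, against 27.2% and 24.2% of genes tested. In old PBS against young PBS they did not overlap for 12 higher and 0 lower, against 38.1% and 11.0%. Srf itself was at 30.3 and 25.8 TPM in young PBS, 38.0 and 33.8 TPM in old PBS, and 35.4 and 39.3 TPM in old MIT-001. The ribosomal S6 kinase gene Rps6ka3 (1.33 ± 0.31), the MEK1 gene Map2k1 (0.73 ± 0.20) and the JNK2 gene Mapk9 (0.61 ± 0.20) had the smallest p of those higher in old PBS than in young PBS. Kinase activity is set by phosphorylation, which RNA levels do not show. A list of 18 bZIP genes, for partners or relatives of FOS and JUN proteins, had medians of 0.18 and 0.23 in the 2 comparisons. Atf1 (0.99 ± 0.22), Atf2 (1.02 ± 0.30) and Creb1 (1.10 ± 0.42) were higher in old PBS than in young PBS at an unadjusted p below 0.05. Creb1 is also among the 21 genes of the upstream pathway. These 3 of 18 are a share near that of all genes tested, 14.6%.

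Secreted and other effector genes induced early were mixed. Of 24 genes 23 were tested, with 8 higher and 15 lower in old PBS against young PBS (median -0.19) and 19 higher and 4 lower in old MIT-001 against old PBS (median 0.63). Without replicate 1 labelled young PBS, 12 were higher and 11 lower in the first comparison (median 0.02). The chemokine gene Ccl2 was at 41.3 and 4.39 TPM in young PBS, 0.889 and 2.37 TPM in old PBS, and 17.2 and 13.9 TPM in old MIT-001. Replicate 1 labelled young PBS was far above replicate 2 in this gene. Plk3, a stress-response kinase gene, had log2 fold changes of -0.92 ± 0.32 and 1.57 ± 0.32. The connective tissue growth factor gene Ccn2 (1.90 ± 0.44 and -0.48 ± 0.44) and Hbegf, a ligand of the EGF receptor (0.98 ± 0.29 and -0.10 ± 0.29), went the other way. Heat shock genes, which answer protein damage, had medians of -0.13 and 0.30, with 5 of 10 lower in old PBS than in young PBS and 8 of 10 higher in old MIT-001 than in old PBS. Without replicate 1 labelled young PBS, 2 of 10 were lower in old PBS (median 0.55). Without replicate 2 labelled old PBS, 2 were lower in the first comparison (median 0.30) and 5 higher in the second (median 0.01). Hspb1, a small heat shock protein gene, was at 250 and 103 TPM in young PBS, 71.8 and 42.5 TPM in old PBS, and 286 and 92.1 TPM in old MIT-001 (log2 fold changes -1.52 ± 0.65 and 1.54 ± 0.65), lowest in old PBS without overlap. Hspa1a was higher in replicate 1 than in replicate 2 of every group, at 297 and 33.6 TPM in young PBS, 133 and 15.0 TPM in old PBS, and 179 and 65.9 TPM in old MIT-001. Hsph1 was at 63.8 and 51.9 TPM, 94.7 and 92.7 TPM, and 57.8 and 61.3 TPM in the same order, highest in old PBS. With replicate 1 of young PBS left out, 1 young PBS library remains. The log2 fold changes of old PBS against it were 2.46 for Ccn2, 0.84 for Hsph1 and -1.19 for the cochaperone gene Bag3. Bag3 stood at 65.2 and 146 TPM in young PBS, and had -0.61 ± 0.39 with all 6 libraries.

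**Figure D4:**
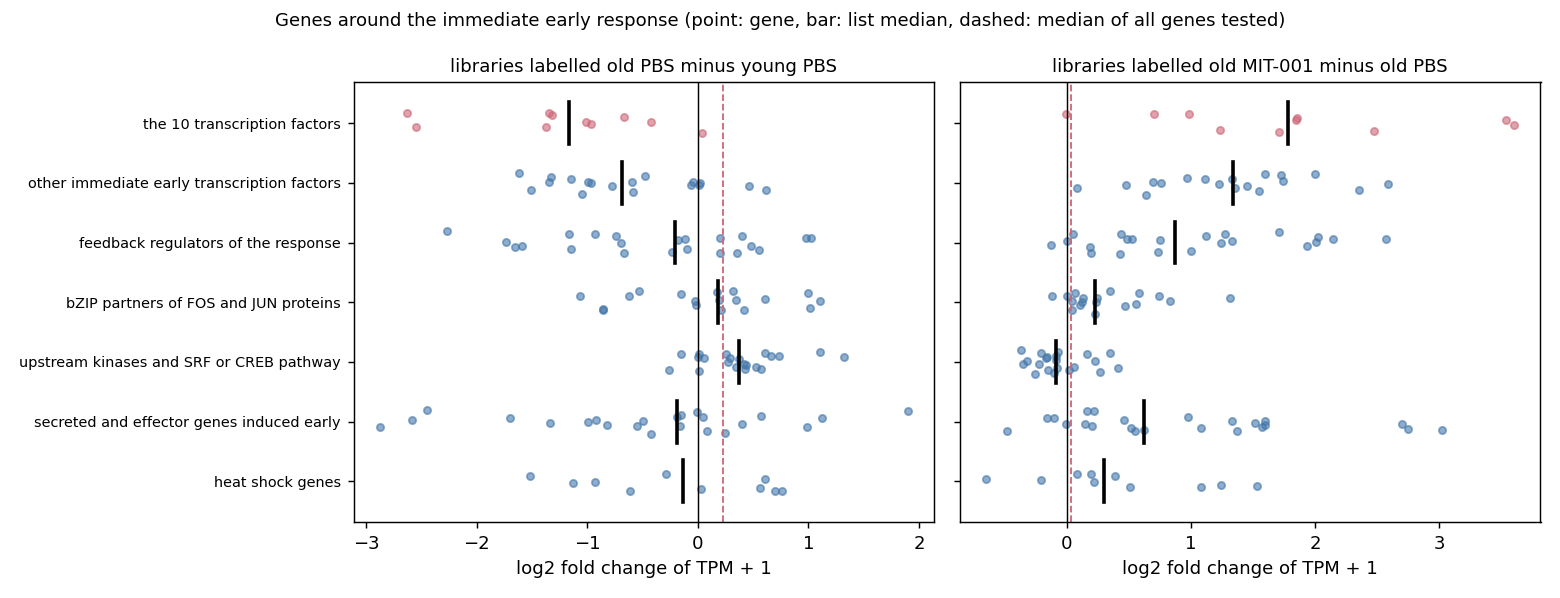
Log2 fold change of TPM + 1 (horizontal axis) of the genes tested in each list, 1 point a gene, a bar at the list median and a dashed line at the median of all genes tested, in old PBS against young PBS and in old MIT-001 against old PBS. The median moves from -1.16 to 1.78 for the 10 transcription factors, from -0.69 to 1.34 for other immediate early factors, and from 0.37 to -0.09 for the upstream pathway.

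Markers of several cell types moved with the same groups. The 8 macrophage markers were all lower in old PBS than in young PBS and all higher in old MIT-001 than in old PBS, with summed TPM of 807 and 827 in young PBS, 138 and 162 in old PBS, and 379 and 360 in old MIT-001. The 7 surface epithelium markers were all on average lower in old PBS than in either other group, with sums of 250 and 355 TPM in young PBS, 167 and 160 TPM in old PBS, and 622 and 662 TPM in old MIT-001. Oviduct and ciliated epithelium markers had sums of 111 and 195 TPM, 33.5 and 37.8 TPM, and 753 and 487 TPM in the same order. Granulosa markers, 10 of 10, went the other way, with sums of 3305 and 3040 TPM, 7302 and 9229 TPM, and 2590 and 3798 TPM. Smooth muscle markers were lower in 6 of 6 and then higher in 6 of 6, with sums of 1869 and 854 TPM, 976 and 611 TPM, and 2637 and 928 TPM. T and NK cell markers summed to 31.3 and 17.7 TPM, 4.36 and 3.87 TPM, and 31.0 and 13.5 TPM. Of 6 mast cell markers 5 were listed at 0 in both old PBS libraries. The 6 endothelial markers summed to 378 and 326 TPM, 382 and 352 TPM, and 302 and 248 TPM in the same order, lowest in old MIT-001. The part of cell make-up in the differences of the 10 genes was not tested.

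The genes most like the 10 in their course over the 6 libraries were found among 11943 other tested genes whose TPM averaged 5 or more, by the root mean square difference of log2(TPM + 1), centred per gene, from the median course of the 10. The smallest differences were those of Rcan2 (0.22), Klf2 (0.23), Egr2 (0.23), Plk3 (0.24), Sik1 (0.25) and 5033421B08Rik (0.26). Of these 6, 4 stood on the lists above, which were chosen with earlier results of these data known, so this overlap is a description only. Among the 10 themselves the difference was 0.08 for Nr4a1, 0.28 for Jun and 0.31 for Egr1, and the largest were 0.77 for Fosb, 0.89 for Atf3 and 0.90 for Fosl2. Nr4a1 thus lay closest to this median course, to which all 10 genes contributed. Fosb and Atf3 departed from it by a wider range, and Fosl2 by the absence of that course. Rcan2, a regulator of calcineurin, was at 11.8 and 7.98 TPM in young PBS, 3.79 and 3.91 TPM in old PBS, and 13.3 and 17.5 TPM in old MIT-001. Egr2, a relative of Egr1, was at 12.7 and 9.43 TPM, 8.18 and 3.08 TPM, and 11.4 and 18.2 TPM in the same order.

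On mm10, Fos (Gene ID 14281) lies on chromosome 12 from 85473890 to 85477274 and Fosb (14282) on chromosome 7 from 19302696 to 19310118. Fosl2 (14284) spans 32136472 to 32157840 of chromosome 5, and Fosl1 (14283) spans 5447698 to 5455938 of chromosome 19. Jun (16476) lies on chromosome 4 from 95049036 to 95052222, while Junb (16477) and Jund (16478) share chromosome 8, from 84976909 to 84978748 and from 70697739 to 70700616. Egr1 (13653) spans 34861207 to 34864956 of chromosome 18. Atf3 (11910) spans 191170296 to 191183333 of chromosome 1, and Nr4a1 has Gene ID 15370. All are annotated as protein-coding.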

How the data were processed

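Ovary mRNA was profiled in 6 libraries. Per the labels' protocols, TRIzol was used for extraction and a SMARTer mRNA kit for the libraries. Per the submitters' processing notes, Trimmomatic, HISAT2 and StringTie were used with build mm10; no version, annotation or strand setting is known here. The deposited TPM values are scaled for length and to a fixed total. FPKM as deposited, an alternative here, are TPM divided by a constant per file (1.89 to 2.31). The deposited coverage signal, mean read depth over a gene, was divided by FPKM to estimate depth. No read counts were used.

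Symbols came from a RefSeq table (GRCm38.p6); 98 rows per library did not match and were left out. Genes reaching a TPM of 1 in 2 or more libraries entered the test as log2(TPM + 1) with limma 3.58.1 (R 4.3.3), with 1 mean per group, all 6 libraries, an intensity trend, 3 residual and 3.12 prior degrees of freedom, two-sided tests and Benjamini-Hochberg adjustment over all 16473 genes. The procedure was tested on simulated data. Reads of overlapping genes cannot be separated without a strand setting.

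The members and lists were chosen with earlier results of these data known, so no list was tested and no p was adjusted over a list alone. Named genes were the 10 factors, up to 3 genes per list and direction with the smallest p in old PBS against young PBS, and the 6 genes most like the 10; Srf was added after its values were seen. Alternatives were another pseudocount, filter and scaling, no trend, fewer libraries, a replicate block, and leaving out each library. Promoter windows were searched as letters on both strands.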

Additional observations from a re-analysis of the deposited data

How the results depend on the processing

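No read counts were used, so precision is known only from 2 libraries a group, and Fosl1, at 0.113 to 6.50 TPM, is the least certain gene. In old PBS against young PBS the 6 genes called over all genes became 15 after median centring, 17 after quantile normalization, 1 with no filter, 1 without a trend, 1 with the replicate block and 0 with only the 4 libraries compared. Leaving out a library in turn gave 0 to 948, a median of the 10 genes from -1.72 to -0.77, and 3 to 7 of the 10 at an unadjusted p below 0.05. In old MIT-001 against old PBS the 3 genes called became 1 with FPKM, 1 after centring, 0 with no filter, 0 with the replicate block and 356 with only the 4 libraries compared. Leaving out a library gave 0 to 372 calls, a median of 1.30 to 2.10 and 5 to 8 of the 10. In old MIT-001 against young PBS, the main fit had 0 of the 10 past an unadjusted 0.05, against 17.1% of genes tested higher. The count was 1 of the 10 after quantile normalization and with the replicate block. The same count was found with only the 4 libraries compared. With a library left out, this count changed and the median of the 10 genes was 0.24 to 0.90. The cause of these changes was not tested. Deviations of libraries with the same replicate number correlated at 0.24, 0.0066 and 0.18 over genes for the 3 pairs of groups. Whether the replicate numbers pair the libraries was not tested.

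The direction of no gene changed except for Fosl1, Fosl2, Junb and Jund, none of them called. Fosl2 in old PBS against young PBS was -0.12 with FPKM, -0.29 after centring, and -0.57 to 0.64 without a library. Fosl1 was -2.26 to 0.32 there without a library. Fosl2 in old MIT-001 against old PBS was 0.033 after quantile normalization, 0.016 without immunoglobulin, haemoglobin and mitochondrial genes, and -0.20 to 0.20 without a library. In old MIT-001 against young PBS, Fosl1 was -0.21 with FPKM, -0.40 after centring, -0.43 after quantile normalization, and -1.27 to 1.30 without a library. Fosl2 was -0.12 with FPKM, -0.38 after centring, and -0.57 to 0.64 without a library. Jund was -0.14 after centring and -0.057 to 0.62 without a library. Junb was -0.25 to 1.25 without a library. The number of the 10 lowest in old PBS, a count and its alternatives added after the data were seen, ranged from 7 to 9. The list counts without a library were also added after the data were seen.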
